A study of Homo sapiens with 12 samples.

Results

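The mRNA levels of 9 Krüppel-like factor genes (KLF2, KLF3, KLF4, KLF6, KLF9, KLF10, KLF11, KLF13 and KLF16) were examined in multiple myeloma cells. The genes were taken by symbol from a table of raw counts per gene, in which they are 9 of 43735 entries and 9 of the 18 KLF genes listed. RNA was sequenced from MM1S and MM1R, established cell lines that came from a single myeloma patient. MM1S is the glucocorticoid (GC) sensitive line and MM1R the GC-resistant line. Each line was left untreated (UT) or received withaferin A (WA), a steroidal lactone from the plant Withania somnifera, at 1 µM for 3 h. There were 4 groups of 3 cultures: MM1S UT, MM1S WA, MM1R UT and MM1R WA. The cultures of MM1S were at passages 16, 22 and 23 and those of MM1R at passages 4, 6 and 7, with 1 UT and 1 WA culture at each passage. No passage was shared by the lines, so that passage and line cannot be told apart, and no vehicle is named for the UT cultures. All groups stand for 1 patient, and the p-values measure the spread between these cultures.

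Krüppel-like factors are transcription factors with a carboxy-terminal stretch of C2H2 zinc fingers that binds GC-rich and CACCC sequences, the same kind of site that the SP proteins bind. They fall into a group of mostly activating factors that recruit acetyltransferases (here KLF2, KLF4 and KLF6), a group that binds the corepressor CtBP (here KLF3) and a group that binds the corepressor SIN3A (here KLF9, KLF10, KLF11, KLF13 and KLF16). In B-lineage cells KLF2 is best known as a factor of quiescence and homing, and in plasma cells it has been linked to their retention in bone marrow. Several family members respond within hours to stress, serum or hormones.

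The sequences just before the start sites of the 5 genes that passed the test in at least 1 line are shown first, since their mRNA levels carry the findings. They come from a RefSeq promoter table, from which entries for 7 of the 9 genes were used. No entry for KLF3 or KLF10 was used, so that the motif counts below leave these genes out. Each sequence shown was found at 1 place on its chromosome in GRCh37, the build of the counts. Capitals mark the GC box GGGCGG on either strand and, in KLF2, the MEF2 motif (CTA, any 4 bases, TAG). The sequences run 5′ to 3′ on the strand of the gene and end at the base before the start of the gene as GENCODE draws it, which in KLF6 lies upstream of the RefSeq start.
KLF2, chr19:16435387-16435636, plus strand: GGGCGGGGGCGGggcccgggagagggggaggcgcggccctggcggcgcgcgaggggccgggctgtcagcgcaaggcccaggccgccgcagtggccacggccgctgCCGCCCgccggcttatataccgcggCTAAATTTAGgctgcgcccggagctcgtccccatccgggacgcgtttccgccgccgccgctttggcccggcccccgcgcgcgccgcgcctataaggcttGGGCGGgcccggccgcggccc
KLF6, chr10:3827474-3827651, minus strand: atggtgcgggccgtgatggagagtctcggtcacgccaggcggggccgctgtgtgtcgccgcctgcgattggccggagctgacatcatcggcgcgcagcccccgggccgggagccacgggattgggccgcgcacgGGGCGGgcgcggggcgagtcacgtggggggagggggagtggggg
KLF9, chr9:73029574-73029823, minus strand: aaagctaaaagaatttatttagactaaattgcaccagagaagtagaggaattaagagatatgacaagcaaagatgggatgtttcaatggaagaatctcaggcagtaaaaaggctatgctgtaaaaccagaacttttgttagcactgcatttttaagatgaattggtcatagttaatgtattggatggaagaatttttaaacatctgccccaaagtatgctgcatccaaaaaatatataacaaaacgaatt
KLF13, chr15:31618788-31619037, plus strand: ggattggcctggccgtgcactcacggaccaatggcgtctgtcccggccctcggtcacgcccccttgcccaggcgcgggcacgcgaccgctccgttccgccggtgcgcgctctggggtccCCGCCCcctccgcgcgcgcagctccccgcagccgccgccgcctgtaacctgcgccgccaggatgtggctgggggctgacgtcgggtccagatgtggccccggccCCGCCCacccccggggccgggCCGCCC
KLF16, chr19:1863579-1863828, minus strand: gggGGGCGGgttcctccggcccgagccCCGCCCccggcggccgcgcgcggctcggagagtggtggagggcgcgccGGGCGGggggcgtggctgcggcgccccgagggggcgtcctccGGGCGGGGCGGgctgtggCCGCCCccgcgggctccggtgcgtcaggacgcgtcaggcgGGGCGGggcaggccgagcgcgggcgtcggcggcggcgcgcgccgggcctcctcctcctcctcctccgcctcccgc

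The GC content of these stretches was 80% for KLF2, 76.4% for KLF6, 78.8% for KLF13 and 86.4% for KLF16, against 32.4% for KLF9. In the 250 bases before the RefSeq start the GC box occurred 4 times in KLF2, 2 times in KLF6 (1 of them in the part not printed), 3 times in KLF13, 7 times in KLF16 and not at all in KLF9. Over the 7 genes whose entries were used, 6 held a GC box, which 42.6% of 35116 promoters held. The CACCC box (CACCC) was found in 2 of the 7, against 54.7% of all promoters. The MEF2 motif was found in 2 of the 7 (KLF2 and KLF11), where 2.36% of all promoters had it, and MEF2 proteins are known to activate KLF2. The cAMP response element TGACGTCA was found in KLF11 alone of the 7, and in 1.65% of all promoters. The heat shock motifs GAANNTTC and TTCNNGAA and the antioxidant response motif TGACNNNGC matched in 0 of the 7, with 5.78%, 6.62% and 10.9% of all promoters holding a match. KLF11 had more than 1 entry, so that the 7 genes gave 8 windows, whereas the shares of all promoters are per entry. By window the GC box was in 7 of 8, the CACCC box and the MEF2 motif each in 2 of 8, and the cAMP response element in 1 of 8. These are matches of letters on both strands and are given as a description only.

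Total counts per culture lay between 17625110 and 19368343. Markers of plasma cells (8 genes) summed to 4744 to 5354 CPM (counts scaled to library size) in MM1S UT, 4417 to 4753 in MM1S WA, 5652 to 5979 in MM1R UT and 4528 to 5134 in MM1R WA. The B-cell markers MS4A1 and PAX5 had at most 3 reads each in any culture. Markers of other cells (9 genes) summed to between 27.5 and 48.3 CPM, with 3 of the 9 at no more than 3 reads. The collagen gene COL1A1, one of these, rose with WA from 0.72 to 4.95 CPM in MM1S and from 1.93 to 10.7 CPM in MM1R. The part of these shifts in the KLF values was not tested. In bulk RNA, fewer cells that express a gene and less of its RNA per cell cannot be told apart.

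All 9 genes were detected in every culture and passed the filter on low counts. Levels of different genes were compared as CPM per kilobase of the canonical transcript. In MM1S UT the order was KLF6 (40.0 ± 2.71, SD, n = 3), KLF2 (21.3 ± 7.83), KLF16 (19.5 ± 1.94), KLF3 (14.9 ± 0.96), KLF10 (11.5 ± 1.52), KLF13 (10.0 ± 0.28), KLF11 (7.84 ± 1.92), KLF9 (2.20 ± 0.88) and KLF4 (0.59 ± 0.01). KLF6 and KLF4, at the ends of this order, did not overlap with their neighbours, and KLF11 did not overlap with KLF13 or KLF9. KLF2 and KLF16 overlapped with each other, and so did KLF10 and KLF13. MM1R UT had KLF6 again at the top (33.5 ± 4.50) and KLF4 at the bottom (0.55 ± 0.06), with KLF16 (27.3 ± 1.10) in second place above KLF2 (17.5 ± 2.29). After WA, KLF6 (67.9 ± 12.5 in MM1S and 69.7 ± 16.4 in MM1R) and KLF2 (37.04 ± 9.98 and 56.4 ± 16.4) held the first places in both lines. KLF4, a factor best known from epithelia and pluripotent cells, thus stood near the lower edge of detection with 18 to 35 reads per culture.

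**Figure D1:**
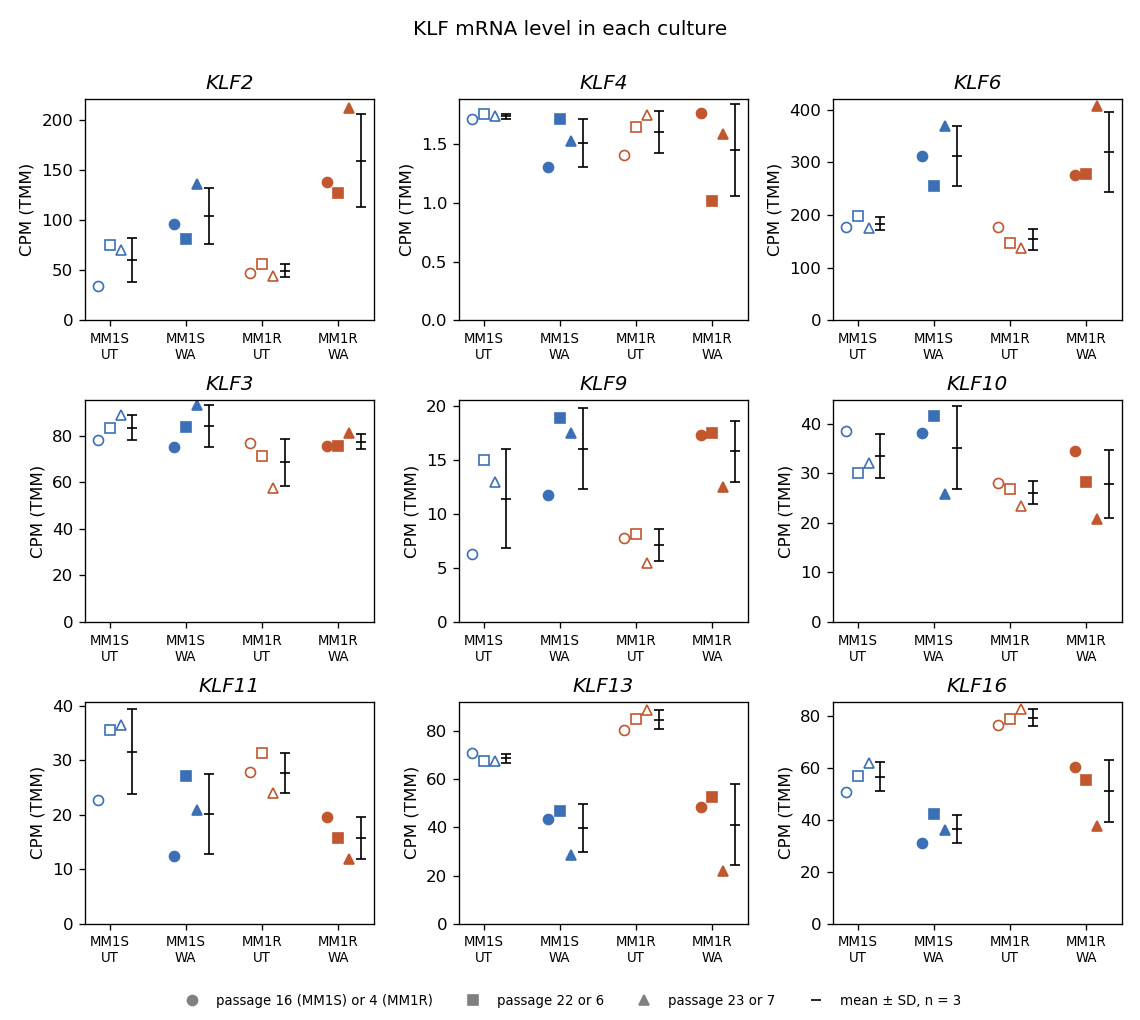
Levels of the 9 KLF genes in each of the 12 cultures, as TMM-scaled CPM on linear axes that start at 0. Open symbols are UT and filled symbols WA cultures, marker shapes give the passage, and bars show the mean ± SD of 3 cultures. KLF2 and KLF6 lie higher in the WA cultures of both lines and KLF13 and KLF16 lower, without overlap with UT.

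The first comparison asked how far basal expression in GC-resistant MM1R differed from that in GC-sensitive MM1S. None of the 9 genes passed the limits for this comparison (adjusted p below 0.01 and a log2 fold change, log2FC, of at least 1 in size), which 2.97% of the 14085 genes tested passed. At an adjusted p of 0.05 and no limit on the fold change the count was still 0 of 9 in this fit, beside 11.9% of all genes. DESeq2 also called 0 of 9 under the limits with the fold change, beside 4.05% of all genes. In the edgeR fit 3 of the 9 had an unadjusted p under 0.05, as did 3649 of the 14085 genes. The median log2FC of the 9 was -0.26, beside 0.01 over all genes tested.

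The 3 genes with the lowest p-values were KLF16, KLF9 and KLF3. KLF16, a SIN3A-binding repressor, had 50.7, 56.9 and 61.9 CPM in MM1S UT (passages 16, 22 and 23) and 76.3, 78.5 and 82.6 CPM in MM1R UT (passages 4, 6 and 7). Each MM1R culture thus lay above each MM1S culture, with a log2FC of 0.49 ± 0.16 (SE) and an adjusted p of 0.065 by edgeR's quasi-likelihood test (Benjamini-Hochberg). KLF9, a glucocorticoid-induced repressor, had 6.32, 15.0 and 13.0 CPM in MM1S UT and 7.81, 8.12 and 5.42 CPM in MM1R UT. The lines overlapped through the passage 16 culture of MM1S, and the log2FC was -0.68 ± 0.29 (edgeR's quasi-likelihood test, adjusted p = 0.15). With no filter on low counts the adjusted p was 0.0071 for KLF9 and 0.02 for KLF16 in edgeR's quasi-likelihood test. KLF9 then missed the limits by the fold change alone, while KLF16 missed both the limit of 0.01 and that on the fold change. In the same test the adjusted p of KLF16 was also below 0.05 with only the UT cultures fitted (0.022). So it was without the WA culture of passage 16 of MM1S (0.045) or of passage 7 of MM1R (0.028). For KLF9 it was below 0.05 without the UT culture of passage 16 of MM1S (0.015). For KLF3, which recruits CtBP, the log2FC was -0.28 ± 0.12 with an adjusted p of 0.16 in the same test.

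The other 6 genes had log2FCs between -0.36 (KLF10) and 0.30 (KLF13). Their 95% intervals all included 0. The lowest bound was -0.87 (KLF2) and the highest 0.84 (KLF13), while the interval of KLF6 ran from -0.62 to 0.11 and that of KLF10 from -0.78 to 0.06.

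**Figure D2:**
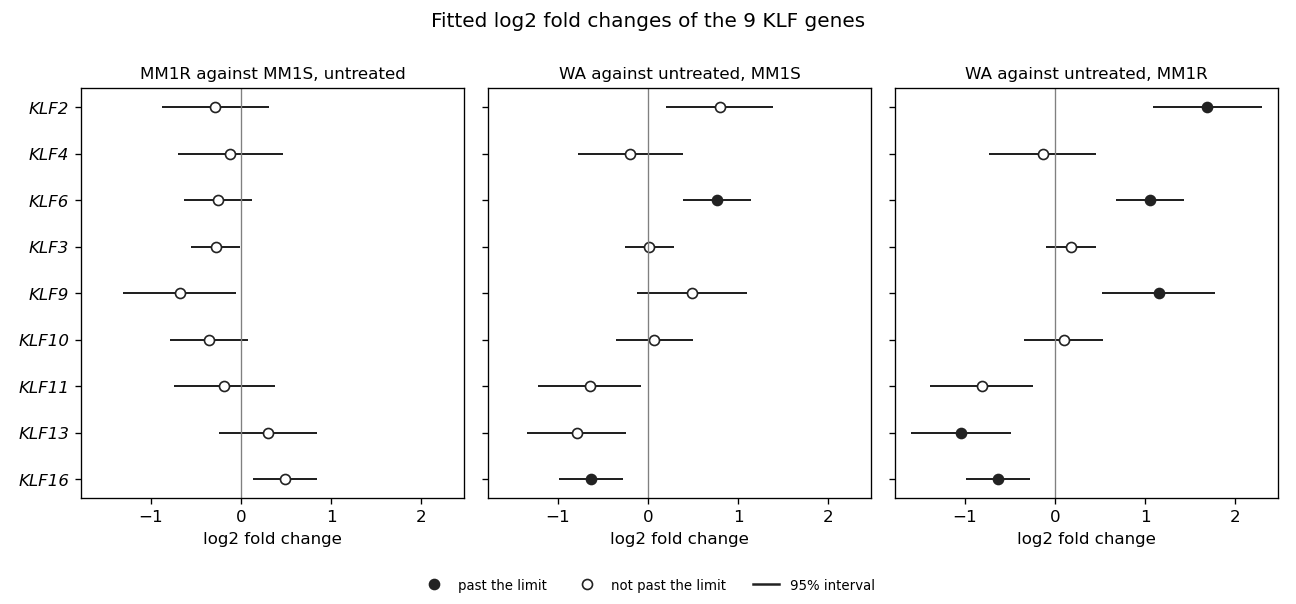
Log2 fold changes of the 9 KLF genes from the edgeR fit of all 12 cultures, for MM1R against MM1S untreated, WA against UT in MM1S and WA against UT in MM1R. Bars are 95% intervals, and filled points passed the limit of the comparison over 14085 genes. There are 0, 2 and 5 filled points from left to right, and KLF2, KLF6 and KLF9 lie to the right of 0 in both WA panels while KLF11, KLF13 and KLF16 lie to the left.

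The effect of WA was tested within each line at an adjusted p of 0.05. In MM1S, KLF6 rose and KLF16 fell, so that 1 of the 9 genes was called higher and 1 lower, where 6.25% of all genes tested were called higher and 4.23% lower. In MM1R, KLF2, KLF6 and KLF9 rose and KLF13 and KLF16 fell, or 3 of 9 higher and 2 of 9 lower, beside 7.55% and 6.46% of all genes. The median log2FC of the 9 was 0.01 in MM1S and 0.09 in MM1R, close to the medians over all genes (0.01 in both lines). With passage as a block, which compares the UT and WA cultures of the same passage, the same 6 genes passed in both lines (KLF2, KLF6 and KLF9 higher, KLF11, KLF13 and KLF16 lower), and this fit called 24.1% of all genes in MM1S and 29.1% in MM1R. KLF3, KLF4 and KLF10 passed in neither line in either fit.

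KLF2 lies on chromosome 19 (GRCh37, 16435637 to 16439496, plus strand). It was measured at 34.8, 75.2 and 70.5 CPM in MM1S UT (passages 16, 22 and 23) and at 96.2, 81.4 and 136 CPM in the WA cultures of the same passages. In MM1R (passages 4, 6 and 7) the UT cultures had 47.5, 56.5 and 44.02 CPM and the WA cultures 138, 127 and 212 CPM. WA cultures lay above UT cultures in both lines, narrowly so in MM1S, where passage 22 differed by 0.11 on the log2 scale and passage 16 by 1.45. In MM1R, KLF2 rose 3.22-fold (log2FC 1.69 ± 0.28, SE), with an adjusted p of 0.0015 by edgeR's quasi-likelihood test (Benjamini-Hochberg). The log2FC in MM1S was 0.80 ± 0.27 (edgeR's quasi-likelihood test, adjusted p = 0.079), and with passage as a block it was 0.84 with an adjusted p of 0.017. DESeq2 called it in MM1S without the block and not with it (adjusted p = 0.076).

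KLF6 (chromosome 10, 3818188 to 3827473, minus strand), a broadly expressed factor of the same group that is known as an early response gene, had the highest level per length of the 9. Its UT cultures had 177, 198 and 176 CPM in MM1S and 177, 147.5 and 137 CPM in MM1R. With WA the values were 312, 254 and 369 CPM in MM1S and 275, 278 and 407 CPM in MM1R, and no WA culture overlapped with any UT culture of either line. KLF6 rose 1.70-fold in MM1S (log2FC 0.76 ± 0.17, adjusted p = 0.012) and 2.08-fold in MM1R (log2FC 1.06 ± 0.17, adjusted p = 0.0013) by edgeR's quasi-likelihood test. The call in MM1S was lost without the UT culture of passage 23 (adjusted p = 0.053 in edgeR's quasi-likelihood test) and without the WA culture of passage 23 (adjusted p = 0.058).

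KLF4, the third of this group, had group means of 1.74, 1.51, 1.60 and 1.45 CPM in MM1S UT, MM1S WA, MM1R UT and MM1R WA. Its log2FC was -0.20 in MM1S (95% interval -0.77 to 0.38) and -0.14 in MM1R (95% interval -0.72 to 0.45), and a rise such as that of KLF2 in MM1R lies outside both intervals.

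Among the corepressor-binding genes, KLF3 was measured at 83.3 ± 5.36 CPM (SD, n = 3) in MM1S UT, 84.0 ± 9.15 in MM1S WA, 68.5 ± 10.1 in MM1R UT and 77.4 ± 3.31 in MM1R WA. UT and WA overlapped in both lines, with a 95% interval of the log2FC from -0.25 to 0.27 in MM1S and from -0.09 to 0.44 in MM1R. The antisense gene KLF3-AS1 overlaps KLF3 and had 3 to 13 reads per culture. KLF4, KLF11 and KLF16 also overlap antisense RNAs without a symbol, and whether reads were counted by strand is not given in the sources used here, so that reads of such partners cannot be told apart from those of the KLF genes. KLF13 overlaps the processed pseudogene UBE2CP4 on its own strand over 535 bases, which counting by strand would not separate. UBE2CP4 has no entry in the counts.

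KLF9 (chromosome 9, 72999520 to 73029573, minus strand) had the lowest level per length of the SIN3A-binding genes. In MM1R the UT cultures had 7.81, 8.12 and 5.42 CPM and the WA cultures 17.3, 17.55 and 12.5 CPM (passages 4, 6 and 7). Every WA culture lay above every UT culture, and the 3 pairs differed by 1.10, 1.07 and 1.14 on the log2 scale, the closest agreement between pairs of any of the 9 genes in MM1R. KLF9 rose 2.22-fold there (log2FC 1.15 ± 0.29, adjusted p = 0.017 by edgeR's quasi-likelihood test). In MM1S the UT cultures had 6.32, 15.0 and 13.0 CPM and the WA cultures 11.8, 18.9 and 17.5 CPM, which overlapped, although each WA culture lay above the UT culture of its own passage. The log2FC in MM1S was 0.49 ± 0.28 with an adjusted p of 0.31 in edgeR's quasi-likelihood test, and 0.53 with an adjusted p of 0.01 with passage as a block. The call in MM1R was lost when 1 of 4 cultures was left out: UT passage 6 (adjusted p = 0.051), UT passage 7 (0.078), WA passage 4 (0.059) or WA passage 6 (0.057), all by edgeR's quasi-likelihood test.

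KLF13 (chromosome 15, 31619038 to 31727868, plus strand) is a lymphocyte factor known for the activation of the chemokine gene CCL5 in T cells. It had 71.0, 67.7 and 67.6 CPM in MM1S UT and 43.6, 47.0 and 28.5 CPM in MM1S WA. The MM1R UT cultures had 80.6, 85.1 and 88.6 CPM and the MM1R WA cultures 48.6, 52.7 and 21.8 CPM. All 6 WA cultures lay below all 6 UT cultures, and the WA culture of MM1R passage 7 was the lowest, at -2.00 from its UT partner on the log2 scale, against -0.72 and -0.69 for passages 4 and 6. In MM1R, KLF13 fell with a log2FC of -1.04 ± 0.25 and an adjusted p of 0.015 by edgeR's quasi-likelihood test, and without that culture the log2FC was -0.72. In MM1S the log2FC was -0.79 ± 0.25 with an adjusted p of 0.061 in edgeR's quasi-likelihood test. With passage as a block it was -0.82 and the adjusted p 0.014, whereas DESeq2 called it without the block (adjusted p = 0.016) and not with it (adjusted p = 0.06). Without the WA culture of MM1R passage 7, which belongs to the other line but enters the estimate of the spread, the adjusted p in edgeR's fit with no block was 0.0055.

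KLF16 (chromosome 19, 1852398 to 1863578, minus strand) was lower with WA in every pair. Its WA cultures had 30.9, 42.0 and 36.1 CPM in MM1S and 60.4, 55.1 and 37.7 CPM in MM1R, against 50.7 to 61.9 and 76.3 to 82.6 CPM in the UT cultures. UT and WA did not overlap within either line. The log2FC was -0.64 ± 0.16 (adjusted p = 0.024) in MM1S and -0.63 ± 0.16 (adjusted p = 0.019) in MM1R by edgeR's quasi-likelihood test. The call in MM1S was lost without the UT culture of passage 22 (adjusted p = 0.076 in edgeR's quasi-likelihood test) or 23 (0.1) or the WA culture of passage 16 (0.085) or 23 (0.075), and that in MM1R without UT passage 6 (0.068), UT passage 7 (0.061) or WA passage 7 (0.085).

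KLF11 (TIEG2; chromosome 2, 10182976 to 10194963, plus strand), a TGF-beta inducible repressor, had 22.7, 35.6 and 36.5 CPM in MM1S UT and 12.5, 27.1 and 21.0 CPM in MM1S WA. In MM1R it had 27.8, 31.4 and 24.1 CPM in UT and 19.6, 15.8 and 11.9 CPM in WA cultures. UT and WA overlapped in MM1S through the low UT culture of passage 16 and did not overlap in MM1R. The log2FC was -0.65 ± 0.26 (adjusted p = 0.13) in MM1S and -0.82 ± 0.26 (adjusted p = 0.054) in MM1R by edgeR's quasi-likelihood test. With passage as a block the values were -0.68 (adjusted p = 0.0028) and -0.83 (adjusted p = 0.00075), so that KLF11 fell in both lines in that fit. Without the block it passed in MM1S when WA passage 22 of MM1S was left out (adjusted p = 0.046), and in MM1R without UT passage 16 (0.034), WA passage 16 (0.017) or WA passage 22 (0.037) of MM1S.

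KLF10 (TIEG1), its closest relative, did not pass. It had 38.6, 30.1 and 32.1 CPM in MM1S UT and 38.2, 41.7 and 25.8 CPM in MM1S WA, and 28.1, 26.9 and 23.4 CPM in MM1R UT and 34.5, 28.4 and 20.8 CPM in MM1R WA. The pairs moved both up and down in each line, and the 95% interval of the log2FC ran from -0.35 to 0.49 in MM1S and from -0.33 to 0.52 in MM1R.

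**Figure D3:**
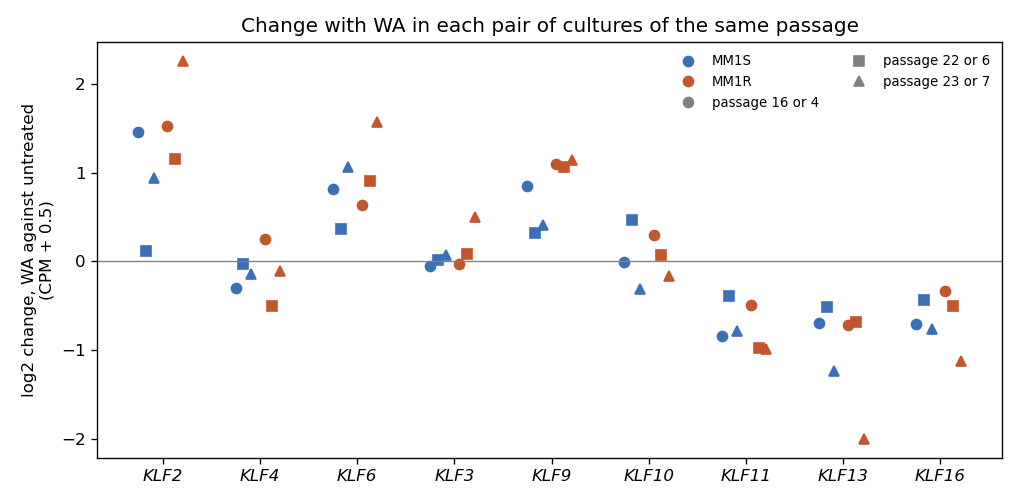
Change of each KLF gene between the WA and the UT culture of the same passage, as the log2 ratio of CPM + 0.5, in the 3 pairs of MM1S (blue) and the 3 pairs of MM1R (orange). KLF2, KLF6 and KLF9 are above 0 in 6 of 6 pairs and KLF11, KLF13 and KLF16 below 0 in 6 of 6, while the pairs of KLF3, KLF4 and KLF10 lie on both sides of 0 in MM1R.

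The directions in the single pairs are given as a description. The 6 genes below are those that the fit with passage as a block called from the same pairs. That fit called 24.1% of all genes in MM1S and 29.1% in MM1R. The share of all genes with 1 direction in 6 of 6 pairs was not counted. KLF2, KLF6 and KLF9 were higher with WA in 6 of 6 pairs, and KLF11, KLF13 and KLF16 were lower in 6 of 6. The passage 7 pair of MM1R had the largest change of the line for all 6: KLF2 (2.26), KLF6 (1.57), KLF13 (-2.00), KLF16 (-1.12) and, by a small margin, KLF9 (1.14) and KLF11 (-0.99). The passage 22 pair of MM1S had the smallest change of that line for all 6, from 0.11 for KLF2 to -0.52 for KLF13.

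Whether the effect of WA differed between the lines was tested as an interaction. It passed for 0 of the 9 genes and for 0% of all 14085 genes, with 1 of the 9 (KLF2) and 97 genes in all at an unadjusted p under 0.05, and DESeq2 called 0 of the 9 and 1 gene in all. For KLF2 the effect in MM1R exceeded that in MM1S by 0.89 on the log2 scale (95% interval 0.07 to 1.71), with an adjusted p of 1 by edgeR's quasi-likelihood test. Without the filter on low counts KLF2 passed (adjusted p = 0.031 by edgeR's quasi-likelihood test), when 11 of 26497 genes were called. The difference was 0.66 for KLF9 (95% interval -0.20 to 1.52), 0.29 for KLF6 (-0.22 to 0.81), -0.25 for KLF13 (-1.01 to 0.51), -0.17 for KLF11 (-0.96 to 0.62) and 0.00 for KLF16 (-0.48 to 0.49). The calls that MM1R had and MM1S lacked are therefore not shown to be differences between the lines.

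Of the other 9 KLF genes in the table, 6 were tested, and KLF14, KLF17 and KLF18 had at most 2 reads in any culture. KLF7, which acts in neurons and in lymphoid progenitors, had 26.9, 18.5 and 16.8 CPM in MM1S UT and 80.2, 41.8 and 69.4 CPM in MM1S WA. In MM1R it had 26.1, 19.37 and 18.8 CPM in UT and 48.0, 46.9 and 68.1 CPM in WA cultures. All WA cultures lay above all UT cultures, and KLF7 rose with a log2FC of 1.62 ± 0.25 in MM1S (adjusted p = 0.001) and 1.34 ± 0.25 in MM1R (adjusted p = 0.0032) by edgeR's quasi-likelihood test. KLF5, a growth-promoting factor of epithelia, fell in MM1R from 3.29 ± 0.50 to 1.802 ± 0.40 CPM (SD, n = 3), a log2FC of -0.87 with an adjusted p of 0.026 in edgeR's quasi-likelihood test, and had a log2FC of -0.30 in MM1S (adjusted p = 0.46). KLF12, a CtBP-binding repressor, had log2FCs of 0.59 and 0.46 with adjusted p of 0.08 and 0.15 by edgeR's quasi-likelihood test, and with passage as a block it passed in both lines (adjusted p = 0.0016 and 0.0038). KLF15, KLF8 and KLF1 passed in neither line, the last with 2 to 16 reads per culture.

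The SP genes encode the relatives that bind the same GC boxes. Of the 9, 5 were tested, and SP5, SP6, SP7 and SP8 had at most 11 reads in any culture. SP2 fell in MM1S from 58.3 ± 2.38 to 46.0 ± 2.84 CPM (SD, n = 3), with a log2FC of -0.34 and an adjusted p of 0.032 by edgeR's quasi-likelihood test, and was the only SP gene called in the fit without the block. Its log2FC in MM1R was -0.28 (adjusted p = 0.057), and with passage as a block SP2 and SP3 passed as lower in both lines and SP1 as higher in MM1R. SP1 had log2FCs of 0.11 and 0.23 with WA in MM1S and MM1R, SP3 of -0.28 and -0.30, and SP4 of -0.35 and -0.35. SP9 had 0 to 2 reads in MM1S UT and 4 to 13 in MM1R UT, too few for a fold change.

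**Figure D4:**
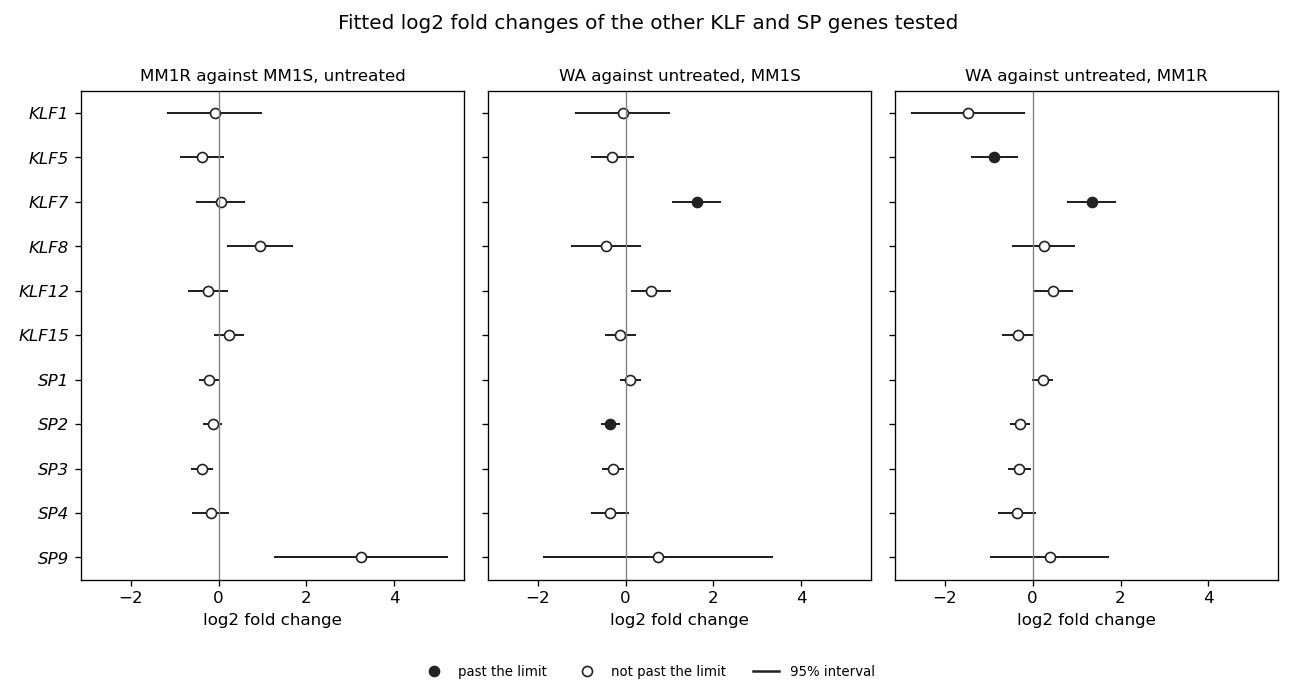
Log2 fold changes of the other KLF genes and of the SP genes that were tested, from the same edgeR fit and in the same layout, with 95% intervals and filled points for those past the limit. KLF7 passed to the right of 0 in both WA panels, KLF5 to the left in MM1R and SP2 to the left in MM1S. The wide intervals of KLF1 and SP9 go with at most 16 and 18 reads per culture.

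Of 20 cofactors and regulators of the family, 19 were tested. In MM1S, 2 rose and 3 fell, and in MM1R 3 rose and 1 fell, with a median log2FC of -0.01 and 0.06 over the list. Over all genes 6.25% rose and 4.23% fell in MM1S, and 7.55% rose and 6.46% fell in MM1R. With passage as a block 3 rose and 4 fell in MM1S and 5 rose and 5 fell in MM1R, in a fit that called 24.1% and 29.1% of all genes. SIN3A, the corepressor bound by KLF9, KLF10, KLF11, KLF13 and KLF16, fell in MM1S from 131 ± 12.2 to 97.8 ± 14.2 CPM (SD, n = 3), a log2FC of -0.42 (adjusted p = 0.046 by edgeR's quasi-likelihood test). CTBP1, the corepressor bound by KLF3, fell in MM1S with a log2FC of -0.39 (adjusted p = 0.024), and both also passed in MM1R with the block. The acetyltransferase gene EP300 rose in MM1R with a log2FC of 0.55 (adjusted p = 0.024 by edgeR's quasi-likelihood test) and had 191 ± 13.2 CPM in MM1S WA against 146 ± 9.10 in MM1S UT. In MM1S its log2FC of 0.38 did not pass in the same test (adjusted p = 0.11), and it passed there with passage as a block (adjusted p = 0.032). WWP1, a ubiquitin ligase that acts on KLF2 and KLF5, rose in both lines with log2FCs of 0.55 and 0.43, and the histone demethylase gene KDM3A rose with 0.54 and 0.65.

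IRF4, a plasma cell factor on which myeloma cells depend and which has been described in one loop with KLF2 and KDM3A, fell in both lines. It had 801, 1171 and 1112 CPM in MM1S UT and 488, 594 and 779 CPM in MM1S WA, and 1138, 1228 and 986 CPM in MM1R UT and 547, 549 and 631 CPM in MM1R WA. The WA cultures lay below the UT cultures in both lines, with log2FCs of -0.73 (adjusted p = 0.019) and -0.96 (adjusted p = 0.0032) by edgeR's quasi-likelihood test. The genes MEF2A, MEF2C and MEF2D and the kinase genes MAP2K5 and MAPK7, which act upstream of KLF2 in endothelial cells, did not pass in either line in the fit without the block, and with it MEF2A was called higher in MM1R (log2FC 0.41, adjusted p = 0.025).

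Of 15 genes described as targets of KLF factors in other cells, 10 were tested, and S1PR1, CCR7, THBD, CDKN1C and MAOA were too low. WA raised 1 and lowered 1 in MM1S and raised 2 and lowered 1 in MM1R, with medians of -0.04 and 0.18 over the list. The shares over all genes were 6.25% higher and 4.23% lower in MM1S and 7.55% and 6.46% in MM1R, and with 10 genes tested nothing is read from these counts. CDKN1A, the p21 cell cycle inhibitor that KLF4 and KLF6 can activate, rose with log2FCs of 1.82 (adjusted p = 0.022) and 1.56 (adjusted p = 0.033) by edgeR's quasi-likelihood test. CCND1, the cyclin D1 gene, fell from 13.8 ± 2.14 to 7.98 ± 0.40 CPM in MM1S and from 11.2 ± 2.24 to 4.23 ± 0.87 CPM in MM1R (SD, n = 3). ATF3, a stress gene, rose in MM1R with a log2FC of 2.10 (adjusted p = 0.022), and its WA culture of passage 7 had 221 CPM against 70.7 and 65.0 CPM at passages 4 and 6. With passage as a block ATF3 passed in MM1S too (adjusted p = 0.017). ITGB7, an integrin gene under KLF2 control in plasma cells, had log2 changes within pairs that averaged -0.25 in MM1S and -0.22 in MM1R. It did not pass in the fit without the block (adjusted p = 0.27 and 0.34 by edgeR's quasi-likelihood test) and passed as lower with it (adjusted p = 0.021 and 0.032 by edgeR's quasi-likelihood test).

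As a description of pattern, the genes whose log CPM followed each KLF gene most closely over the 12 cultures were found among 12321 genes. KLF2 was followed most closely by SAT1 (Pearson r = 0.972), ZNF10 and VEGFA, and KLF6 by MXD1 (0.99), PRRC2A and DNAJB4. KLF13 was followed by ZNF574 (0.978), PRMT6 and IRF2, KLF16 by NRROS and CDK9, KLF11 by WDR89 (0.973) and HERC5, and KLF9 by ARHGAP42 (0.949). KLF4 had the lowest best match, PHC1 with 0.814. These cultures share treatment, line and passage, so that the coefficients describe the 12 cultures alone.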

How the data were processed

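RNA was isolated with a column kit and sequenced on a BGISEQ-500 as paired reads. Per the labels and the methods, the authors checked reads with FastQC 0.11.5, aligned them with STAR 2.7.3a to hg19 and deposited raw counts per gene, with no normalization; the annotation and strand setting are not given in the sources used here. A table of counts normalized by the authors with DESeq2 was not used. Lines, treatment and passage came from the sample labels. The 9 genes, the gene lists and the rule for naming genes (all KLF and SP genes with at least 10 reads in some culture, and listed genes past a limit, with other listed genes chosen after their values were seen) were chosen with earlier results of these data known.

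The table lists 43735 genes, 14085 of which passed edgeR's filterByExpr (minimum count 10). Total counts per culture were 17625110 to 19368343 (median 18555625), and low counts limit the precision of KLF4 and KLF1. No library was a repeat of another of its group: the chi-square of replicate counts per degree of freedom was 8.77 to 49. Pairs of libraries from different groups were not compared in this way. Counts were scaled with TMM and tested in R 4.3.3 with edgeR 4.0.16 (quasi-likelihood test, all 12 cultures in 1 fit, Benjamini-Hochberg adjustment over all genes tested). Limits were an adjusted p of 0.01 with a log2FC of 1 for MM1R against MM1S, and 0.05 for WA and for the interaction. Scripts were tested on simulated counts. CPM changes within pairs used a pseudocount of 0.5.

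Passage numbers paired the cultures: deviations from the group mean correlated between the UT and WA cultures of the same passage in all 6 pairs (r = 0.744, 0.262 and 0.491 for MM1S passages 16, 22 and 23, and 0.427, 0.221 and 0.254 for MM1R passages 4, 6 and 7). Of the different passages, UT 22 with WA 23 (0.347) and UT 23 with WA 22 (0.419) of MM1S exceeded the 0.262 of passage 22. The fit with passage as a block was an alternative. Others were DESeq2 1.42.0, its size factors, library totals (added after seeing the data), no filter or a stricter one, fits of the compared groups alone, other limits, and leaving out each culture. Promoters came from a RefSeq table (GRCh38.p14) and were placed on GRCh37 by exact match. Gene models and transcript lengths were GENCODE's for GRCh37. Values of some listed genes are not reported here.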

Additional observations from a re-analysis of the deposited data

How the results depend on the processing

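In MM1S, where 2 of the 9 genes were called for WA, the count was 5 with no filter on low counts, 4 with DESeq2, 6 with passage as a replicate block in edgeR, 4 with that block in DESeq2 and 0 at an adjusted p of 0.01. With only the libraries compared it was 3. Of all genes tested in MM1S, 10.5% were called in the fit without the block, 7.15% with no filter and 14% with DESeq2. The block called 24.1% in edgeR and 20.8% in DESeq2, the limit of 0.01 called 3.95%, and the libraries compared alone 8.46%. In MM1R, with 5 called, it was 6 with the block in either tool, with no filter, with DESeq2 and with only the libraries compared, and 2 at an adjusted p of 0.01. The interaction count was 1 with no filter and 0 otherwise. Leaving out 1 culture at a time gave 0 to 3 called in MM1S (0 without passage 23 of MM1S UT or of MM1S WA) and 3 to 6 in MM1R (3 without passage 6 or 7 of MM1R UT), with 0 in the basal comparison and the interaction. The share of all genes called in MM1S was 5.03% without passage 23 of MM1S UT and 5.65% without passage 23 of MM1S WA. In MM1R the share was 6.57% without passage 6 of MM1R UT and 8.4% without passage 7 of MM1R UT. The block changed no call in the interaction and could not be used for the basal comparison, since the lines share no passage. The cause of these shifts was not tested.

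Over all genes the basal count of 419 became 1681 at an adjusted p of 0.05 with no limit on the fold change, 811 with no filter and 234 with at least 10 reads in every culture. The WA counts of 1476 and 1973 became 3399 and 4094 with the block, 2930 and 3424 with the block in DESeq2, and 556 and 812 at an adjusted p of 0.01. The interaction count of 0 became 11 with no filter, 1 with DESeq2 and 6 with its block.

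Of the single values of the 9 genes, 647 kept direction and call under an alternative, 18 lost a call, 23 gained one and 32 changed sign, all of the last from values that were not called. KLF3 with WA in MM1S (0.01) was -0.01 with DESeq2 size factors (-0.0066), no filter (-0.0109), DESeq2 (-0.0067) and DESeq2 with the replicate block (-0.0095), and -0.046 with library totals. The interaction of KLF16 (0.00) was -0.014 with the replicate block in edgeR and -0.0069 in DESeq2. Leaving out 1 culture gave ranges across 0 for KLF3 in MM1S (-0.070 to 0.090), KLF10 in MM1S (-0.071 to 0.25) and MM1R (-0.089 to 0.29), KLF4 in MM1R (-0.30 to 0.082), and the interactions of KLF4 (-0.11 to 0.29), KLF10 (-0.16 to 0.22), KLF11 (-0.42 to 0.10), KLF13 (-0.45 to 0.080) and KLF16 (-0.14 to 0.21).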
